A study of Mus musculus with 16 samples.

Results

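Keratins are the intermediate filament proteins of epithelial cells. The genes described here are the 48 keratins that a single-colour Agilent array measured in whole mouse lung, of 20863 named genes. They were chosen by symbol alone (Krt followed by digits only). Each gene is given by its brightest spot on average, and the other spots of 11 keratins served as a check. Of the 48 genes, 25 lie on chromosome 11 and 23 on chromosome 15. Krt6a, Krt6b, Krt33a and Krt33b carry a letter in their symbols and fall outside this choice.

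The 16 arrays hold total RNA of C57BL/6 lungs of mice aged 9 to 12 weeks, 1 array per sample. A target site blocker (TSB) is a short synthetic nucleic acid that shields 1 microRNA site of a messenger RNA, in this study the one of Cav1. Bleomycin is a drug that injures the lung epithelium and leads to fibrosis. The 4 groups were bleomycin with CAV1 TSB (6 arrays), bleomycin with control TSB (6 arrays), PBS with CAV1 TSB (2 arrays) and PBS with control TSB (2 arrays). The CAV1 TSB was given at 5 mg/kg and bleomycin at 1 unit/kg, and the labels give no dose for the control TSB. All mice received the blocker into the trachea 4 and 2 days before bleomycin or phosphate-buffered saline (PBS) and again 4 days after it. The labels do not state when the lungs were collected or that each sample was a separate animal, so the p-values below measure the spread between these samples. In bulk RNA, fewer cells of a type and less RNA per cell cannot be told apart.

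Keratins form filaments as pairs of a type I and a type II protein, and each kind of epithelium uses its own pairs. Single-layered epithelium, including that of the alveoli and airways, uses simple keratins such as Krt8, Krt18, Krt7 and Krt19. Stratified squamous epithelium, as in the oesophagus and the skin, uses Krt5 and Krt14 in its basal layer and others above it, Krt4 and Krt13 in mucosa and Krt1 and Krt10 in skin. Airway basal cells also make Krt5 and Krt14, and hair follicles have keratins of their own. After alveolar injury in mice, cells passing from type 2 to type 1 identity are known for high Krt8.

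The genes were sorted by role into 5 simple keratins, 3 of the basal layer, 4 of stratified mucosa and 9 placed with cornified epithelium. The others were 3 of injured epithelium or skin appendages, 7 of the inner root sheath of the hair and 12 of the hair itself. Krt12 of the cornea made a class of 1, and 4 had no class. All 48 passed the filter on dim genes, which asked for 2 or more arrays with a signal over the 25th percentile of all spots, and 27 would pass it at the 50th percentile. The signal of 23 keratins never reached 7 on the log2 scale, on which the median of all spots was 6.51 to 6.52 in each array. Between the lowest and the highest array, 32 keratins differed by under 1 log2 unit and 16 by 1 or more.

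The sequences just before the start sites of 10 keratins were read, since the results turn on these genes. They stand for keratins whose signal was low in some lungs and high in others (Krt5, Krt14, Krt13, Krt78, Krt32), for simple keratins (Krt7, Krt8, Krt18, Krt20) and for the only keratin called with bleomycin (Krt79). Each is the 60 bases before the annotated start, 5′ to 3′ on the strand of the gene, from RefSeq on GRCm38.p6. Capitals mark the letters TATAAA or ATAAAAG, which can overlap.
Krt5: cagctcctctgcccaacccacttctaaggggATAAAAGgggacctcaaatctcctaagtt
Krt14: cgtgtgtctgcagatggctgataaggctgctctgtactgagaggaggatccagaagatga
Krt13: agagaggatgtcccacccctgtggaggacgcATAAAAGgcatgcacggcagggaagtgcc
Krt78: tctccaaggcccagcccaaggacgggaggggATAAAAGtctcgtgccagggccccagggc
Krt32: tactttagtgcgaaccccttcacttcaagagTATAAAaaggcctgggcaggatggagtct
Krt7: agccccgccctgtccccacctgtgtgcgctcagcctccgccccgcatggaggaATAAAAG
Krt8: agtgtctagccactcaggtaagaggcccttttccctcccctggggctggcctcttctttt
Krt18: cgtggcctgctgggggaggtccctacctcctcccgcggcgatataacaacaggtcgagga
Krt20: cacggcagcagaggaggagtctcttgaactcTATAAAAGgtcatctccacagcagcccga
Krt79: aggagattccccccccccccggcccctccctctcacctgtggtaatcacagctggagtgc

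These windows lie on the minus strand at chr15:101712906-101712965 (Krt5), chr11:100206031-100206090 (Krt14), chr11:100121567-100121626 (Krt13), chr15:101954288-101954347 (Krt78), chr11:100088270-100088329 (Krt32), chr15:102004343-102004402 (Krt8), chr11:99438154-99438213 (Krt20) and chr15:101940325-101940384 (Krt79). On the plus strand they lie at chr15:101412343-101412402 (Krt7) and chr15:102028156-102028215 (Krt18). Krt13 has 2 entries, and the window before the 5′ end of the gene is shown. In Krt5, Krt13, Krt78, Krt32 and Krt20 the marked letters began 29 bases before the start, and in Krt7 they began 7 bases before it. Neither run of letters was in the window of Krt14, Krt8, Krt18 or Krt79.

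The RefSeq table held a promoter for 35 of the 48 keratins. For each of these 1 window was counted, whereas the shares of mouse promoters count every entry, with more than 1 for some genes. On either strand, TATAAA was in 14 of the 35 windows (40%), against 3.92% of 32851 mouse promoters over the same length. ATAAAAG was in 12 (34.3%), against 1.57%, and at least 1 of the motifs was in 21 (60%), against 4.78%. The second motif was picked after these windows had been read, so its share is a description of them. The letters were found before keratins that differed greatly between lungs, such as Krt13, and before Krt20, which stayed near the median of the array. Promoters of Krt4, Krt15, Krt19 and Krt222 were not used here.

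The 3 keratins of basal cells and the mucosal keratins Krt4, Krt13 and Krt78 divided the 16 lungs into 5 with low and 11 with high signal. This division cut across the treatment groups. The 5 low arrays were bleomycin CAV1 TSB array 3, bleomycin control TSB arrays 2 and 6, and PBS CAV1 TSB arrays 1 and 2. The mean of 14 squamous epithelium genes that are not keratins was 7.29 to 7.46 in these 5 arrays and 10.11 to 11.04 in the other 11. Lor (loricrin, of the cornified envelope) had 6.49 to 7.09 in the 5 and 13.97 to 15.99 in the 11. Of the 14 genes, 10 were higher in every one of the 11 arrays than in any of the 5, against 1.34% of all genes. Dsg3, Tgm3, Ivl and Trp63 were not.

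Genes of skeletal muscle followed the same division. Their mean over 10 genes was 7.19 to 8.51 in the 5 arrays and 10.17 to 12.13 in the 11. Of the 10, 8 were higher in every one of the 11, against 1.34% of all genes. Genes of lung epithelium did not follow it. The mean of 8 such genes was 10.82 to 11.07 over all 16 arrays, and 0 of the 8 were higher in every one of the 11. The labels give whole lung for all samples and mention no other tissue. The division was drawn from these data, the squamous genes included, so it is described with ranges and counts and without a test. Pairs of arrays correlated at 0.971 to 0.998 over genes.

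Krt13, a type I keratin of squamous mucosa, showed the widest range of the 48. It had 6.08 as the lowest, 14.31 as the median and 14.97 as the highest signal with bleomycin and CAV1 TSB, and 5.99, 14.07 and 14.49 with bleomycin and control TSB. It had 5.97 and 6.01 with PBS and CAV1 TSB, against 14.50 and 14.01 with PBS and control TSB. The low values in each bleomycin group were those of the arrays low in squamous genes, and no array lay between 6.08 and 13.70. The second spot of Krt13 gave the same 5 low arrays, at 6.47 to 6.75, against 10.76 to 12.31 in the others.

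Krt4, the type II partner of Krt13 in mucosa, was split in the same way. With bleomycin and CAV1 TSB its lowest, median and highest values were 6.25, 12.54 and 13.30, and with bleomycin and control TSB they were 6.07, 12.48 and 13.03. With PBS it had 5.93 and 5.99 under CAV1 TSB, against 12.95 and 12.31 under control TSB. All 11 arrays high in squamous genes lay above 11.8. Krt78, another type II keratin of squamous mucosa, had 6.10 to 6.40 in the 5 arrays and 10.88 to 12.34 in the 11, and its second spot followed it.

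**Figure D1:**
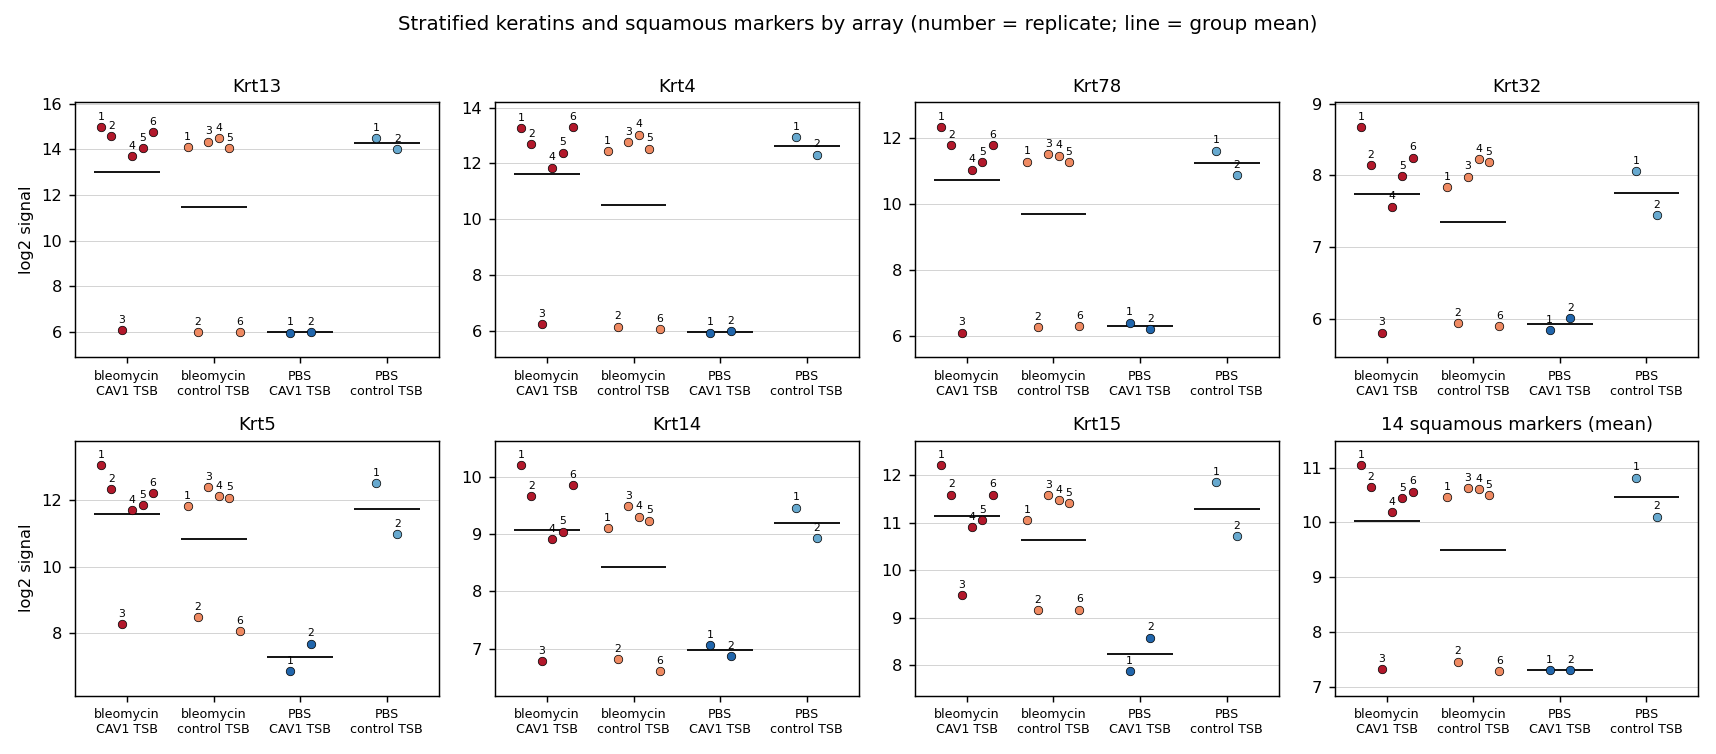
Log2 signal (vertical axes, a different scale in each panel) of 7 keratins and the mean of 14 squamous genes that are not keratins, by array. Points are arrays numbered by replicate, lines are group means. The same 5 arrays (bleomycin CAV1 TSB 3, bleomycin control TSB 2 and 6, PBS CAV1 TSB 1 and 2) are lowest in every panel, for example at 5.97 to 6.08 for Krt13 against 13.70 to 14.97 in the other 11.

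Krt5, the type II keratin of basal cells, had 8.28 as the lowest, 12.03 as the median and 13.05 as the highest value with bleomycin and CAV1 TSB, and 8.08, 11.95 and 12.40 with bleomycin and control TSB. In the PBS lungs Krt5 had 6.87 and 7.70 under CAV1 TSB, against 12.53 and 10.98 under control TSB. Within the 5 arrays Krt5 reached 8.08 to 8.50 in the 3 bleomycin lungs and 6.87 and 7.70 in the 2 PBS lungs. The dimmer spot of Krt5 had 6.00 to 6.18 in these 3 and 6.00 and 5.93 in these 2, without such a gap.

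Krt15, a type I keratin of basal cells, had 9.48, 11.32 and 12.20 as its lowest, median and highest values with bleomycin and CAV1 TSB, and 9.16, 11.23 and 11.58 with bleomycin and control TSB. Under PBS its values were 7.88 and 8.58 with CAV1 TSB, against 11.86 and 10.71 with control TSB. Here too the 5 arrays were lowest, and the 3 bleomycin lungs among them (9.16 to 9.48) lay above the 2 PBS lungs. The comparison within the 5 was made after the values were seen, and it was not tested. Trp63, the transcription factor of basal cells, had 11.85 to 12.21 in the 5 arrays and 11.61 to 12.92 in the 11, so that it did not follow the division.

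Krt14, the type I partner of Krt5, had 6.79, 9.35 and 10.20 as its lowest, median and highest values with bleomycin and CAV1 TSB, and 6.61, 9.17 and 9.48 with bleomycin and control TSB. PBS lungs had 7.07 and 6.87 under CAV1 TSB, against 9.46 and 8.93 under control TSB. Among the 5 low arrays, the PBS lungs were not below the bleomycin lungs for this gene.

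In all, 9 of the 48 keratins (18.8%) were higher in every one of the 11 arrays than in any of the 5, against 1.34% of 20304 genes tested. They were all 3 basal keratins, all 4 of squamous mucosa and the hair keratins Krt32 and Krt35. Krt76 (5.75 to 5.97 in the 5 and 6.02 to 6.43 in the 11) and Krt35 (5.68 to 6.00 and 6.01 to 6.52) were dim. Their signal was at or below the array median of 6.51 to 6.52, with gaps of 0.06 and 0.01 log2. The gap between the 5 and the 11 was over 1 log2 unit for the other 7 of the 9 keratins (14.6% of the 48), against 0.419% of all genes. The 3 basal keratins, Krt4, Krt13 and Krt78 took part in drawing this division, as did the squamous genes, so these shares describe it and test nothing. Krt32, classed with the hair keratins, had 5.81 to 6.01 in the 5 and 7.44 to 8.68 in the 11. None of the 5 simple and none of the 9 cornified keratins was higher in every one of the 11.

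The cornified class holds Krt23, Krt79 and Krt80 beside keratins of the upper epidermis. Krt1, the type II partner of Krt10 there, had 6.05 to 7.23 over all arrays, and Krt2, Krt9, Krt24 and Krt77 stayed between 5.74 and 7.14. The 2 spots of Krt10 disagreed. The brighter spot had 8.0, 8.43 and 8.59 as lowest, median and highest values with bleomycin and CAV1 TSB, 8.11, 8.31 and 8.57 with bleomycin and control TSB, 8.50 and 8.65 with PBS and CAV1 TSB, and 8.58 and 7.82 with PBS and control TSB. These groups overlapped, and the 5 arrays were not low. The other spot followed the squamous genes, with 6.48 to 6.84 in the 5 arrays and 7.82 to 9.15 in the 11.

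Which spots of Krt10 measure its transcript was not tested. Krt23 was bright and even, at 12.25 to 12.97. Krt17, a keratin of injured and appendage epithelium, had 6.34, 6.48 and 6.52 as its lowest, median and highest values with bleomycin and CAV1 TSB, 6.45, 6.65 and 6.76 with bleomycin and control TSB, 6.03 and 6.15 with PBS and CAV1 TSB, and 7.22 and 6.17 with PBS and control TSB. The 2 PBS lungs with control TSB were farther apart than the lungs of any other group. Krt16, also of injured epithelium, had 7.08 to 8.16, and Krt75 had 5.81 to 6.20.

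The simple keratins had high signal in every lung, apart from Krt20. Krt18, the type I partner of Krt8, had 14.56, 14.82 and 15.06 as its lowest, median and highest values with bleomycin and CAV1 TSB, and 14.86, 15.05 and 15.30 with bleomycin and control TSB. In the PBS lungs Krt18 had 14.78 and 14.63 under CAV1 TSB, against 14.72 and 14.22 under control TSB. Under control TSB the 6 bleomycin arrays lay above the 2 PBS arrays, whereas under CAV1 TSB the groups overlapped. The 6 values with bleomycin and control TSB include the samples with an RNA integrity number of 10 (arrays 1 and 5, at 15.12 and 15.30), all other samples having 9. A part of RNA quality in this result was not tested.

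Krt8 had 13.71, 14.25 and 14.37 as its lowest, median and highest values with bleomycin and CAV1 TSB, and 14.12, 14.31 and 14.38 with bleomycin and control TSB. Its values after PBS were 13.57 and 13.61 under CAV1 TSB, against 13.48 and 13.95 under control TSB. All bleomycin arrays lay above the PBS arrays of the same blocker. Krt8 and Krt18 lie next to each other on chromosome 15.

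Krt7, a type II simple keratin, had 13.17, 13.52 and 14.03 with bleomycin and CAV1 TSB and 13.21, 13.53 and 13.66 with bleomycin and control TSB, again as lowest, median and highest. With PBS it had 13.02 and 13.25 under CAV1 TSB, against 12.97 and 13.97 under control TSB. The groups overlapped within each comparison, and the 2 PBS control TSB arrays were farther apart than the 6 bleomycin arrays of either blocker.

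Krt19, a type I simple keratin, had 14.12, 14.35 and 14.89 with bleomycin and CAV1 TSB and 14.04, 14.43 and 14.58 with bleomycin and control TSB. The PBS lungs had 14.06 and 14.03 under CAV1 TSB, against 14.02 and 14.96 under control TSB. All 6 bleomycin CAV1 TSB arrays lay above the PBS CAV1 TSB arrays, and the control TSB groups overlapped. Krt20, known from the gut and urothelium, had 6.04, 6.39 and 6.49 with bleomycin and CAV1 TSB, 6.27, 6.42 and 6.59 with bleomycin and control TSB, 6.31 and 6.13 with PBS and CAV1 TSB, and 6.30 and 6.06 with PBS and control TSB. These values lie near the array median, and the groups overlapped.

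**Figure D2:**
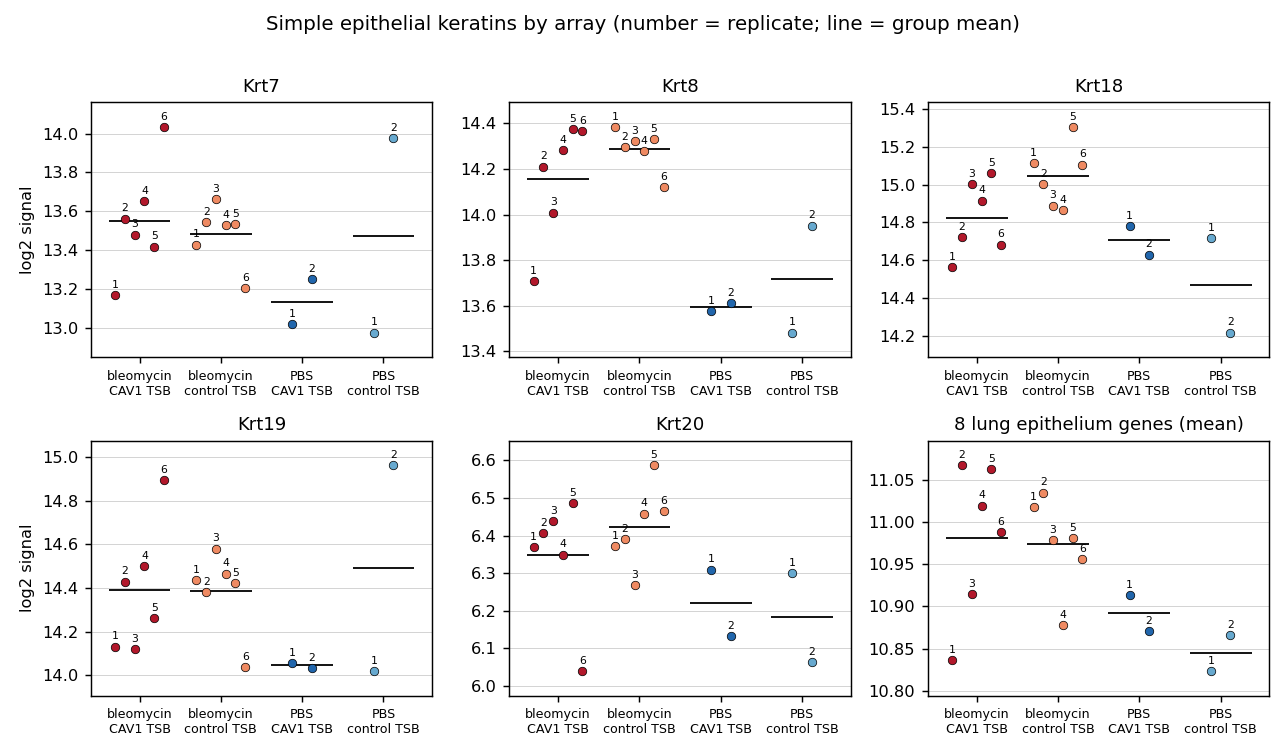
Log2 signal (vertical axes, a different scale in each panel) of 5 simple keratins and the mean of 8 lung epithelium genes, by array. Points are arrays numbered by replicate, lines are group means. The 12 bleomycin arrays of Krt8 lie at 13.71 to 14.38 and the 4 PBS arrays at 13.48 to 13.95, while Krt7 and Krt19 are highest in bleomycin CAV1 TSB array 6 and PBS control TSB array 2.

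The first comparison asked what bleomycin did under control TSB. One keratin was called, Krt79, which was lower with bleomycin, and none was called higher. It was 1 of 48 keratins called (2.08%) at a Benjamini-Hochberg adjusted p under 0.05 by limma, against 2.41% of all genes (1.96% higher and 0.448% lower). With no adjustment (p under 0.05), 2 keratins were higher and 4 lower (12.5% of the 48), against 15.9% of all genes (10.5% higher and 5.41% lower). Non-overlapping groups were found for 3 keratins that were higher with bleomycin (Krt8, Krt18 and Krt25), against 8.55% of all genes, and for 2 that were lower (Krt79 and Krt86), against 4.04%. The shares of keratins are thus near those of all genes.

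Krt79, a type II keratin known in mice from the upper hair follicle and sebaceous duct, had 9.89, 10.99 and 11.87 as its lowest, median and highest values with bleomycin and CAV1 TSB, and 10.54, 10.70 and 10.80 with bleomycin and control TSB. With PBS it had 12.31 and 12.16 under CAV1 TSB, against 11.97 and 12.42 under control TSB. Every bleomycin array lay below every PBS array. The difference under control TSB was -1.52 log2 (SE 0.32, 95% interval -2.19 to -0.84, limma adjusted p 0.0260), or 2.86-fold lower with bleomycin. Under CAV1 TSB it was -1.32 log2 (95% interval -2.0 to -0.64, limma adjusted p 0.0683), which did not pass.

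Krt79 was measured by 1 spot. It did not follow the squamous division, with 10.71 to 12.31 in the 5 arrays and 9.89 to 12.42 in the 11. Its call was lost in several fits. The limma adjusted p was 0.243 without PBS control TSB array 2 and 0.0580 without bleomycin control TSB array 1. It was 0.132 without the 5 arrays low in squamous genes and 0.0633 with the skeletal muscle genes as a covariate, and the difference stayed between -1.29 and -1.55 log2 in these 4 fits.

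Krt8 was 0.57 log2 higher with bleomycin under control TSB (SE 0.16, 95% interval 0.24 to 0.91, limma adjusted p 0.0720) and 0.57 under CAV1 TSB (95% interval 0.23 to 0.90, limma adjusted p 0.107). Neither difference passed the test in the fit to all arrays. The dimmer spot of Krt8 gave 0.19 under control TSB (limma adjusted p 0.741) and 0.62 under CAV1 TSB (limma adjusted p 0.262). Krt18 was 0.58 log2 higher under control TSB (SE 0.15, 95% interval 0.25 to 0.91, limma adjusted p 0.0658) and 0.12 under CAV1 TSB (95% interval -0.21 to 0.45). Without bleomycin CAV1 TSB array 1, the limma adjusted p under control TSB was 0.0187 for Krt8 and 0.0457 for Krt18, with the same differences, and under CAV1 TSB it was 0.0102 for Krt8, with a difference of 0.66. Under control TSB both differences depended on the 2 PBS arrays. Without PBS control TSB array 1 that of Krt8 was 0.34 (limma adjusted p 0.218) and that of Krt18 0.83 (0.0106), and without PBS control TSB array 2 they were 0.81 (0.0956) and 0.33 (0.565).

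Some other genes of the alveolar cells in transition, which in mice share high Krt8, rose with bleomycin. Of 7 measured, 3 were called higher under control TSB, against 1.96% of all genes. They were Cldn4, a tight junction claudin, by 0.98 log2 (limma adjusted p 0.0276), Tnfrsf12a, the receptor for TWEAK, by 0.81 (0.0273) and Hbegf, a ligand of the EGF receptor, by 0.62 (0.0186). Sfn, Cdkn1a, Lgals3 and Plaur were not called there. Under CAV1 TSB 2 of 7 were called higher, against 0.345% of all genes. They were Cdkn1a, an inhibitor of the cell cycle, by 2.01 log2 (limma adjusted p 0.0432) and Cldn4 by 1.08 (0.0417). The median difference of the 7 was 0.62 log2 under control TSB and 0.54 under CAV1 TSB, beside 0.03 and -0.01 over all genes. The mean of the 7 genes was 11.22 to 12.03 with bleomycin and CAV1 TSB, 11.56 to 11.93 with bleomycin and control TSB, 10.76 and 10.80 with PBS and CAV1 TSB, and 11.07 and 11.58 with PBS and control TSB. Their part in the values of Krt8 was not tested. Krt7 and Krt19 differed by 0.01 and -0.10 log2 with bleomycin under control TSB, with intervals of -0.47 to 0.49 and -0.58 to 0.37.

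The median difference of the 5 simple keratins under control TSB was 0.24 log2, with 0 called, beside a median of 0.03 over all genes. That of the 3 basal keratins was -0.77 and that of the 4 mucosal keratins -1.85, with 0 called in either class, the bleomycin group holding 2 arrays low in squamous genes and the PBS group none. The 9 cornified keratins had a median of -0.06, the 7 inner root sheath keratins 0.05 and the 12 hair keratins -0.03.

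The second comparison set bleomycin against PBS under CAV1 TSB. None of the 48 keratins was called by limma, against 0.517% of all genes (0.345% higher and 0.172% lower). With no adjustment (p under 0.05), 9 were higher and 1 was lower (20.8% of the 48), against 14.8% of all genes (7.15% higher and 7.67% lower). Higher without overlap were 8 keratins (16.7%), against 8.38% of all genes, and lower without overlap were Krt79 and Krt9, against 12.3%.

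The large values of this comparison belong to the squamous keratins, and here the groups differ in squamous genes. Both PBS CAV1 TSB arrays were low in them, at a mean of 7.30 each, while 5 of the 6 bleomycin CAV1 TSB arrays were high. Krt13 was 7.03 log2 higher with bleomycin (SE 2.57, limma adjusted p 0.209), Krt4 5.66 (SE 2.04, 0.204), Krt78 4.42 (SE 1.65, 0.216), Krt5 4.29 (SE 1.25, 0.121) and Krt15 2.90 (SE 0.73, 0.0790). None passed the test. With the skeletal muscle genes as a covariate the differences of Krt13, Krt4 and Krt14 turned to -0.34, -0.20 and -0.39, while those of Krt5 and Krt15 kept their direction at 0.55 and 0.79. With the squamous genes as a covariate Krt14 was at -0.17, Krt13 at 0.09, Krt4 at 0.16, Krt5 at 0.94 and Krt15 at 1.02. The covariates divided the arrays as these keratins did, with both PBS CAV1 TSB arrays low. These fits therefore do not tell bleomycin apart from squamous content. Bleomycin CAV1 TSB array 3, which was low in squamous genes, had Krt13 at 6.08, beside 5.97 and 6.01 in the PBS CAV1 TSB arrays.

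The medians of the classes under CAV1 TSB were 5.04 log2 for the mucosal and 2.90 for the basal keratins, beside -0.01 over all genes. The simple keratins had a median of 0.34, with all 5 above 0 and 0 called. For the classes with little signal the medians were small, 0.08 for the inner root sheath and 0.05 for the hair.

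The third comparison asked what CAV1 TSB changed after bleomycin. One keratin was called, Krt222, which was lower with CAV1 TSB. It was 1 of 48 (2.08%), against 1.61% of all genes called (1.20% higher and 0.414% lower). Its groups were the only ones among the 48 keratins that did not overlap in this comparison (2.08%), against 0.832% of all genes lower and 1.50% higher. At an unadjusted p under 0.05 there were 2 keratins, both lower, Krt222 and the inner root sheath keratin Krt28 (-0.24 log2, limma adjusted p 0.163). They are 4.17% of the 48, against 9.08% of all genes (4.48% higher and 4.60% lower).

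Krt222 lies at the edge of the type I keratin cluster on chromosome 11, and no class was given to it. Its brighter spot had 11.33, 11.56 and 11.99 as lowest, median and highest values with bleomycin and CAV1 TSB, and 12.18, 12.78 and 13.12 with bleomycin and control TSB. With PBS it had 11.80 and 11.85 under CAV1 TSB, against 12.75 and 13.53 under control TSB. All 8 CAV1 TSB arrays thus lay below all 8 control TSB arrays.

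After bleomycin the difference of Krt222 was -1.08 log2 (SE 0.17, 95% interval -1.45 to -0.72, limma adjusted p 0.00257), or 2.12-fold lower with CAV1 TSB. After PBS it was -1.32 log2 (SE 0.30, 95% interval -1.95 to -0.69, limma adjusted p 0.0830), which did not pass. The interaction, the difference between these values, was 0.23 log2 (95% interval -0.50 to 0.96). The call after bleomycin held when any of the 16 arrays was left out, with limma adjusted p between 0.000776 and 0.00937. Without the 5 arrays low in squamous genes the difference was -1.10 log2 and the limma adjusted p 0.0665.

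The 2 spots of Krt222 disagreed. The dimmer one stayed at 5.77 to 6.11 in all arrays and gave 0.13 log2 for CAV1 TSB after bleomycin (95% interval -0.03 to 0.28, limma adjusted p 0.691). The mean of the spots gave -0.48 log2 (limma adjusted p 0.0102). Which spot measures the transcript was not tested. The neighbouring genes Smarce1, Ccr7 and Tns4 on one side and Krt24, Krt25 and Krt26 on the other were not called, with differences of -0.16 to 0.01 log2.

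**Figure D3:**
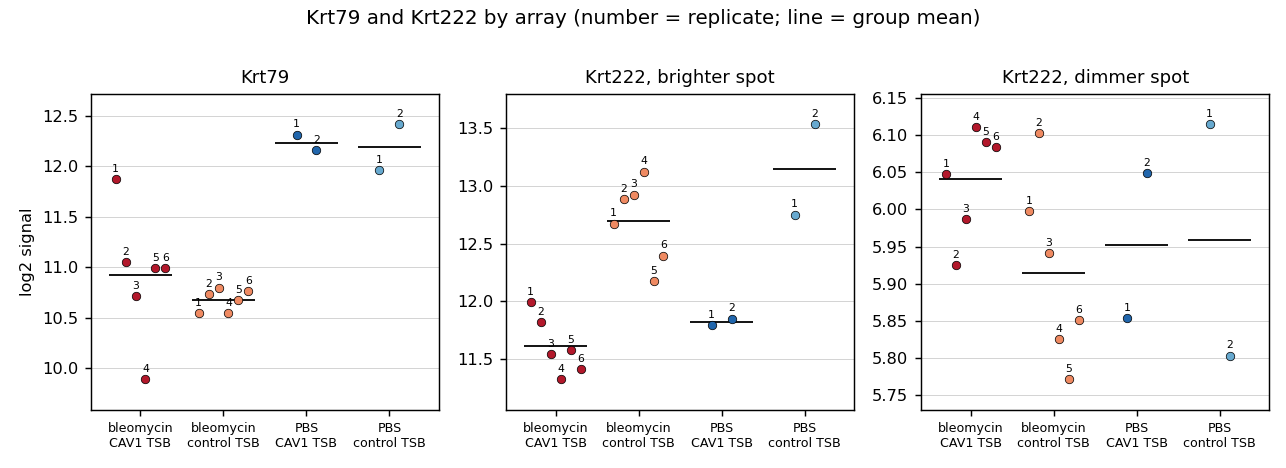
Log2 signal (vertical axes, a different scale in each panel) of Krt79, of the brighter spot of Krt222 and of its dimmer spot, by array. Points are arrays numbered by replicate, lines are group means. For Krt79 the 12 bleomycin arrays lie at 9.89 to 11.87 and the 4 PBS arrays at 11.97 to 12.42, and for the brighter Krt222 spot the CAV1 TSB arrays lie below the control TSB arrays, while the dimmer spot stays within 5.77 to 6.11.

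No simple keratin was called with CAV1 TSB after bleomycin, and the median of the 5 was -0.08 log2, beside -0.01 over all genes. Krt8 differed by -0.13 log2 (95% interval -0.37 to 0.11), Krt18 by -0.22 (95% interval -0.45 to 0.01) and Krt19 by 0.00 (95% interval -0.33 to 0.34). Of the 7 measured genes of alveolar cells in transition, 0 were called here, and their median was -0.23 log2. At an unadjusted p under 0.05 by limma, 3 of the 7 were lower and 0 higher, against 4.60% and 4.48% of all genes. The squamous keratins had wide intervals, and each bleomycin group held arrays low and arrays high in squamous genes. Krt13 differed by 1.53 log2, with 2 of the 6 control TSB arrays and 1 of the 6 CAV1 TSB arrays low in squamous genes, and was not called.

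**Figure D4:**
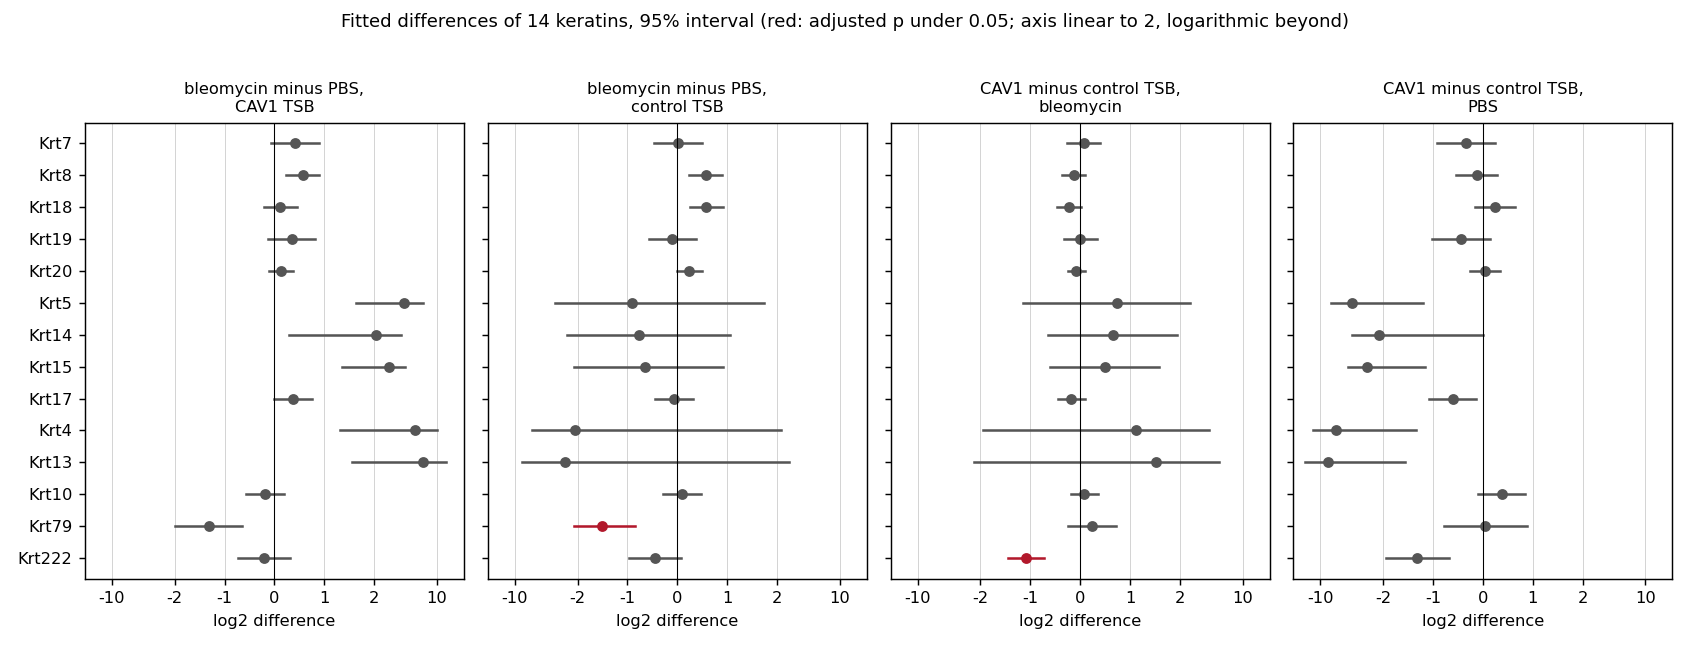
Fitted log2 differences (horizontal axes, linear up to 2 and logarithmic beyond) of 14 keratins in 4 comparisons, each the group named first minus the other. Points are estimates, bars are 95% intervals, and red marks a limma adjusted p under 0.05. Red points are Krt79 with bleomycin under control TSB (-1.52) and Krt222 with CAV1 TSB after bleomycin (-1.08), while Krt4, Krt5, Krt13 and Krt15 have the largest differences between groups that include PBS CAV1 TSB.

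The fourth comparison set CAV1 TSB against control TSB after PBS, with 2 arrays in each group. None of the 48 keratins was called by limma, against 0.310% of all genes (0.276% higher and 0.0345% lower). With no adjustment (p under 0.05), 8 were lower and 0 higher (16.7% of the 48), against 12.8% of all genes (8.26% higher and 4.55% lower). Lower without overlap were 17 keratins (35.4%), against 14.7% of all genes, and higher without overlap were Krt25 and Krt34 (4.17%), against 23.7%. Both CAV1 TSB lungs were low and both control TSB lungs high in squamous genes (7.30 and 7.30, against 10.82 and 10.11) and in skeletal muscle genes (7.19 and 7.36, against 12.13 and 10.28).

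Krt13 differed by -8.27 log2 between these groups (SE 3.15, limma adjusted p 0.367), Krt4 by -6.67 (SE 2.50, 0.367), Krt78 by -4.96 (SE 2.02, 0.380), Krt5 by -4.47 (SE 1.53, 0.329) and Krt15 by -3.05 (SE 0.89, 0.238). None passed in the fit to all arrays, whose spread includes the bleomycin groups with both kinds of array. In a fit to the 4 PBS arrays alone Krt13 and Krt4 were called (limma adjusted p 0.0103 and 0.0289). With the skeletal muscle genes as a covariate Krt13, Krt4 and Krt5 turned to 1.91, 1.44 and 0.70, while Krt15 kept its direction at -0.13. With the squamous genes as a covariate Krt13 was at -0.24, Krt4 at -0.30, Krt5 at -0.59 and Krt15 at -0.87. Krt78 was not computed with either covariate. The median of the class was -5.81 log2 for the mucosal, -3.05 for the basal and -0.12 for the simple keratins, beside 0.04 over all genes. CAV1 TSB and squamous content cannot be told apart in the PBS lungs, where they coincide.

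None of the 48 keratins was called in the interaction of bleomycin and CAV1 TSB by limma, against 0% of all genes. At an unadjusted p under 0.05, 9 were higher and 0 lower (18.8% of the 48), against 9.22% of all genes (3.22% higher and 6.01% lower). They included Krt13 (9.80 log2), Krt4 (7.80), Krt78 (5.99), Krt5 (5.21) and Krt15 (3.55), all at a limma adjusted p of 0.497. The interaction takes in the PBS lungs, in which CAV1 TSB and squamous content coincide. For Krt8 the interaction was -0.01 log2 (95% interval -0.48 to 0.47) and for Krt18 -0.46 (95% interval -0.92 to 0.01).

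A pair of arrays, bleomycin CAV1 TSB array 6 and PBS control TSB array 2, held the 2 highest values of 5 keratins, Krt7, Krt19, Krt42, Krt80 and Krt86. This is 10.4% of the 48, beside 11.8% of all genes, so keratins were not apart from other genes in this. Krt80, a type II keratin of differentiating epithelium, had 10.29 and 11.21 in these arrays and 8.43 to 9.53 in the other 14. Krt42 had 11.73 and 11.90, and 10.91 to 11.44 in the others. The mean of 5 genes of alveolar type 1 cells was also highest there, at 14.29 and 14.23. Ager (a type 1 cell receptor, with 15.59 and 15.55), Hopx and Rtkn2 had their 2 highest values in these arrays, and Aqp5 and Pdpn did not. Pdpn had 14.37 and 14.16 there, with a highest value of 14.71 in bleomycin control TSB array 1. In other lists, Jup of desmosomes (9.43 and 9.60) and the regulator Klf5 (11.38 and 11.81) also peaked in this pair. Others of those lists, such as Pkp2 and Grhl2, did not. A part of any of these genes in the keratin values was not tested.

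**Figure D5:**
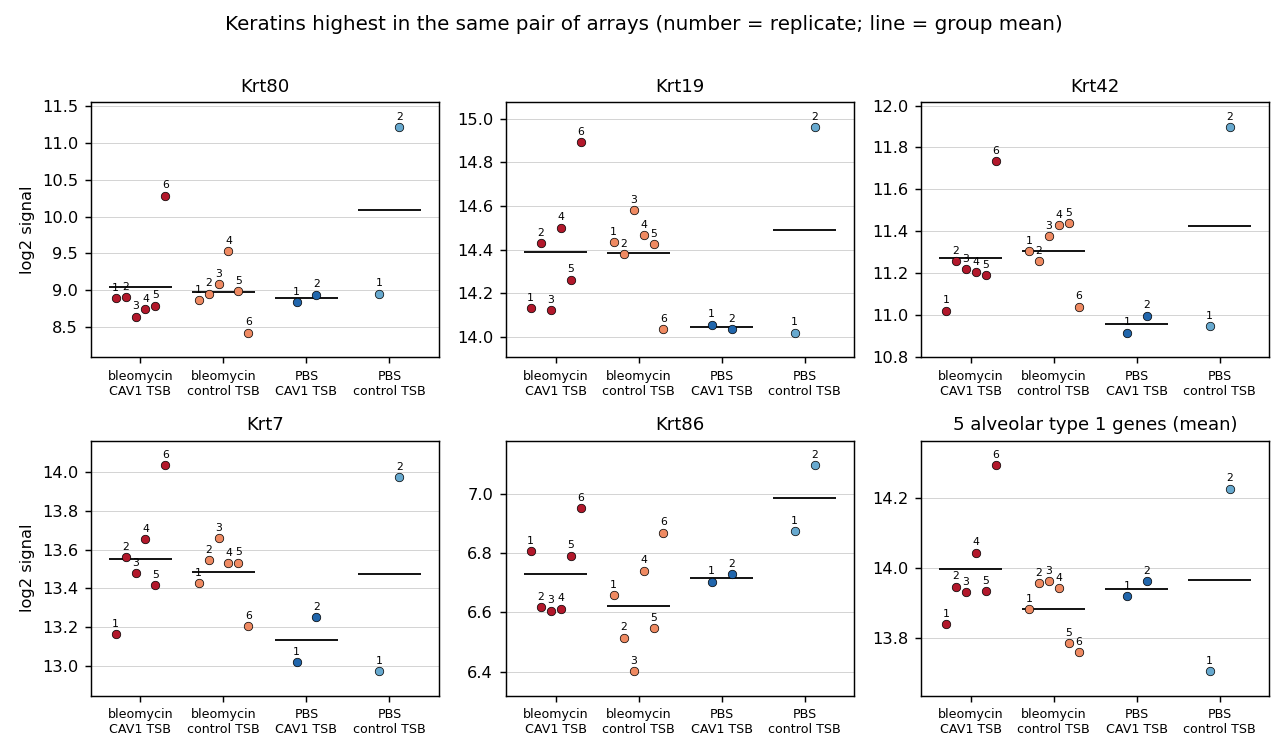
Log2 signal (vertical axes, a different scale in each panel) of 5 keratins and the mean of 5 alveolar type 1 genes, by array. Points are arrays numbered by replicate, lines are group means. Bleomycin CAV1 TSB array 6 and PBS control TSB array 2 are the highest in every panel, for Krt80 at 10.29 and 11.21.

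Without this pair of arrays, Krt1 and Krt17 were called with bleomycin under control TSB and Krt79 was not (limma adjusted p 0.216). One array then stood for PBS with control TSB, assumed to vary like the other groups, and Krt1 and Krt17 were highest of all in that array (7.23 and 7.22).

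The hair and inner root sheath keratins were dim. In the hair class 8 of 12 never reached 7, the others being Krt32, Krt31 (6.72 to 7.55), Krt81 (8.07 to 9.29) and Krt86 (6.40 to 7.10). In the inner root sheath class 6 of 7 stayed below 7, and Krt73 had 7.08 to 7.81. No detection marks were used here, so a low signal is not read as absence. None of these 19 genes was called in any of the 5 comparisons. Krt12 of the cornea stayed at 5.68 to 6.06.

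Proteins that anchor keratin filaments and factors that regulate keratin genes were read from lists as well. Of 11 desmosome and plakin genes, 0 were called in any of the 5 comparisons, although with bleomycin under control TSB limma gave an unadjusted p under 0.05 to 1 that was higher and 1 that was lower, beside 15.9% of all genes. Their median difference there was -0.14 log2, and that of the regulators 0.02, beside 0.03 over all genes. Dsc2, a desmosomal cadherin, and Evpl, the plakin envoplakin, were higher in every one of the 11 arrays high in squamous genes. They are 2 of the 11 genes of this list, against 1.34% of all genes. Dsp, the plakin desmoplakin, had 10.63 to 10.79 in the 5 and 10.71 to 11.66 in the 11. Of 10 regulators, 0 were called in any comparison. An unadjusted p under 0.05 by limma was found for 0 with bleomycin under control TSB. With CAV1 TSB after PBS it was found for 4, 2 of them higher and 2 lower, beside 12.8% of all genes. CAV1 TSB and squamous content coincide in those lungs and cannot be told apart. Among the 10 regulators, 0 were higher in every one of the 11 arrays. Grhl3 had 6.76 to 7.76 in the 5 and 7.68 to 10.01 in the 11, and Klf4 12.19 to 13.15 and 11.74 to 12.58. Among 4 filament genes that are not keratins, Vim, the vimentin of mesenchymal cells, rose by 0.45 log2 with bleomycin under control TSB (limma adjusted p 0.0288), and the other 3 were not called.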

How the data were processed

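Total RNA of 16 mouse lung samples was labelled with Cy3 and hybridised to single-colour Agilent arrays, per the labels. The authors deposited log2 intensities of 62976 spots, made with limma (no version) per the submitters' processing notes; background correction was not given in the sources used here. All arrays had nearly the same distribution (25th percentile 5.97 to 5.99, highest value 18.28), and the deposited log2 values were used as they are. Precision is limited by how many arrays there are.

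Of 31465 spots with 1 gene symbol, 29050 were matched by accession to RefSeq symbols (GRCm38.p6, names only). Current symbols added Krt72, Krt88 and Krt90 to the keratins and renamed the deposited Krt83 as Krt87. The 48 keratins hold 59 spots. The model had a mean for each of the 4 groups, used every array and was fitted with lmFit and eBayes of limma 3.58.1 (R 4.3.3), leaving 12 residual degrees of freedom, over 20304 genes. Tests were two-sided with Benjamini-Hochberg adjustment over all genes, and 95% intervals come from the same fit.

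Genes named with values per array were the 5 simple keratins, Krt4, Krt5, Krt10, Krt13, Krt14, Krt15, Krt17 and Krt79, and any other keratin called. Krt78, Krt32, Krt80 and the other keratins given by ranges were named after their values were seen. The members and lists were chosen with earlier results of these data known. Alternatives covered the dim filter, the spots, the normalization, the moderation, covariates, the arrays fitted and the replicate number as a block. On simulated data of 20304 genes, of 200 shifted by 1 log2 unit the fit called 82% with bleomycin under control TSB and 91.5% with CAV1 TSB after bleomycin. The noise was drawn for each gene on its own and the shifted genes were picked at random. These shares do not hold for keratins with a wide spread, such as Krt13.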

Additional observations from a re-analysis of the deposited data

Results flagged for a closer look

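Among 28 sets of 6 bleomycin arrays checked for a lone low or high array, 5 had one. By chance about 1 in 20 independent sets would, but these sets share arrays, and 3 of the 5 flags came from 1 array. The count is therefore not read against chance. Bleomycin CAV1 TSB array 3 was far below the other 5 of its group for 3 stratified keratins, with 6.08 for Krt13 (next lowest 13.70), 6.25 for Krt4 (next lowest 11.85) and 8.28 for Krt5 (next lowest 11.71). This array is the one of its group that was low in squamous and skeletal muscle genes. Bleomycin control TSB array 6 was the lowest of its group for Krt19, at 14.04, the next being 14.38. Bleomycin CAV1 TSB array 6 was the lowest of its group for Krt20, at 6.04, the next being 6.35.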

How the results depend on the processing

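The number of keratins called was the same under another dim filter, the mean of spots, renewed quantile normalization, median centring, other moderation and the squamous covariate. With bleomycin under control TSB it was 0, against 1, with the replicate block (Krt79 at -1.26 log2, limma adjusted p 0.284), with the muscle covariate and without the 5 arrays low in squamous genes. It was 2 without PBS control TSB array 2 and bleomycin CAV1 TSB array 6 (chosen after seeing the data), and 0 to 6 when 1 array was left out. The replicate block changed no other call of a keratin. Samples sharing a number were not treated as pairs: their deviations from the group means correlated between -0.69 and 0.43, over 0.1 in 6 of 16 pairs, and 3 of 12 bleomycin arrays correlated best with their own number. With CAV1 TSB after bleomycin it was 0 without the 5 arrays and stayed at 1 with any 1 array left out. With CAV1 TSB after PBS it was 2, against 0, in the compared groups only and without the pair of arrays, and 0 to 8 with 1 array left out; the interaction gave 1 without the pair and 0 to 4. With bleomycin under CAV1 TSB it was 0 to 2 with 1 array left out. The highest of these counts came without PBS control TSB array 1 (6, 8 and 4), after which Krt80 and Krt42 were among the called, and without bleomycin CAV1 TSB array 1 (3 and 2). With every named spot fitted on its own, also chosen after seeing the data, the keratin spots called were that of Krt79 with bleomycin under control TSB and the brighter one of Krt222 with CAV1 TSB after bleomycin. Directions turned under the muscle covariate for bleomycin under CAV1 TSB (Krt4 -0.20, Krt13 -0.34, Krt14 -0.39), for CAV1 TSB after PBS (Krt4 1.44, Krt5 0.70, Krt13 1.91) and for the interaction (Krt4 -1.18, Krt5 -0.52, Krt13 -1.48, Krt14 -0.94). Under the squamous covariate Krt14 turned to -0.17 with bleomycin under CAV1 TSB and -0.22 in the interaction. The share of all genes called moved as well: 0.00493% to 3.40% with bleomycin under control TSB (0.455% to 20.2% with 1 array left out), 0% to 1.08% under CAV1 TSB (0.0494% to 3.55%), 0.326% to 2.19% with CAV1 TSB after bleomycin (1.23% to 1.95%), 0.0164% to 1.06% after PBS (0.168% to 19.9%) and 0% to 0.223% in the interaction (0% to 14.9%). The causes were not tested. The PBS CAV1 TSB group is empty without the 5 arrays, so the comparisons that need it have no value there. Signal over background was not given, which limits the 23 dim keratins.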

Other observations

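Some arrays held more of the highest keratin values than others. Bleomycin CAV1 TSB array 1 had the highest signal of 9 keratins, among them Krt5, Krt13, Krt14, Krt15 and Krt78, and of 4.82% of all genes. Its squamous mean, 11.04, was the highest of the 16. Bleomycin control TSB array 5, with an RNA integrity number of 10, also had the highest signal of 9, among them Krt18, Krt20, Krt28 and Krt73, and of 11.01% of all genes. Apart from Krt18 these were dim keratins, with highest values of 6.18 to 7.81. Bleomycin control TSB array 1, also with 10, had the highest signal of 1 keratin, Krt8, and of 3.21% of all genes. PBS control TSB array 2 had the highest signal of 9 as well, among them Krt16, Krt19, Krt79, Krt80 and Krt222, and of 14.5% of all genes.

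Among keratins with a letter in their symbols, Krt6b had 6.09 to 6.43 in the 5 arrays low in squamous genes and 6.30 to 7.44 in the others, and Krt6a had 5.81 to 6.13 and 5.97 to 6.59. Krt33a and Krt33b, of the hair, stayed between 5.55 and 6.49.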
